A study of Mus musculus with 18 samples.

Results

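The tripartite motif (TRIM) genes of the mouse colon were taken as every row of the expression table whose gene symbol begins with Trim followed by a digit, which gave 66 of 27131 rows. RNA with a poly(A) tail came from the colon of untreated C57BL/6 mice, in 9 libraries labelled Hif2a (+/+), here WT, and 9 labelled with an altered Hif2a allele, here HIF2. The altered allele is spelled LSL in the design text and LFL in the sample labels, and the labels describe these animals as overexpressing HIF2 in the colon. The labels give neither what drives the allele nor the ages of the mice. They also do not say that each library is a separate mouse, so the p-values cover library-to-library spread, which may be technical. Fresh and frozen tissue are both named, without the library each belongs to.

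TRIM proteins are a large family of ubiquitin ligases, built from a RING domain that recruits a ubiquitin-charged enzyme, B-box zinc fingers and a coiled coil, with a C-terminal domain that often picks the target. Many carry a PRY-SPRY domain at that end, and a set of these is induced by interferon and restricts viruses or tunes the sensing of viral nucleic acid. Others act in the nucleus, on microtubules, on vesicles or on messenger RNA. HIF2 is the transcription factor subunit, encoded by Epas1, that is stabilised when oxygen is low.

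HIF2 replicates 2 and 4 stood apart from the other HIF2 libraries, with Slc11a2, an iron transporter gene known as a target of HIF2, at 16.5 and 18.2 FPKM. WT libraries held 12.8 to 19 FPKM of it and the other 7 HIF2 libraries 229 to 2101 FPKM, so counts are also given without that pair.

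Of the 66 TRIM rows, 38 had a mean of at least 1 FPKM (fragments scaled by transcript length and library size) over the 18 libraries and were tested among 13976 genes. The test was limma on log2(FPKM + 1), 2-sided, and a gene was called at a Benjamini-Hochberg adjusted p under 0.05 over all genes tested. In HIF2, 5 TRIM genes were higher (13.2% of the 38) and 13 were lower (34.2%). Over all genes tested, 11% were called higher and 11.1% lower. The median log2 change, HIF2 minus WT, was -0.20 over the tested TRIM genes and -0.02 over all genes tested. Expression of 3 TRIM genes, Trim30a, Trim30d and Trim12a, was lower in every HIF2 library than in any WT library, and of all genes 1.27% separated in that way. No TRIM gene separated the groups in the other direction, as 0.758% of all genes did.

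Without HIF2 replicates 2 and 4, 4 TRIM genes were higher and 14 lower, beside 10.6% of all genes higher and 11.2% lower. Trim23 was no longer called there and Trim2 was gained. Upper quartile scaling moved the all-gene median from -0.021 to 0.081 and the share of calls that were higher from 49.6% to 72.1%, and gave 6 TRIM genes higher and 10 lower. The summed FPKM of all 66 rows ran from 485 to 591 in WT and from 367 to 492 in HIF2, so the groups overlapped narrowly.

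**Figure D1:**
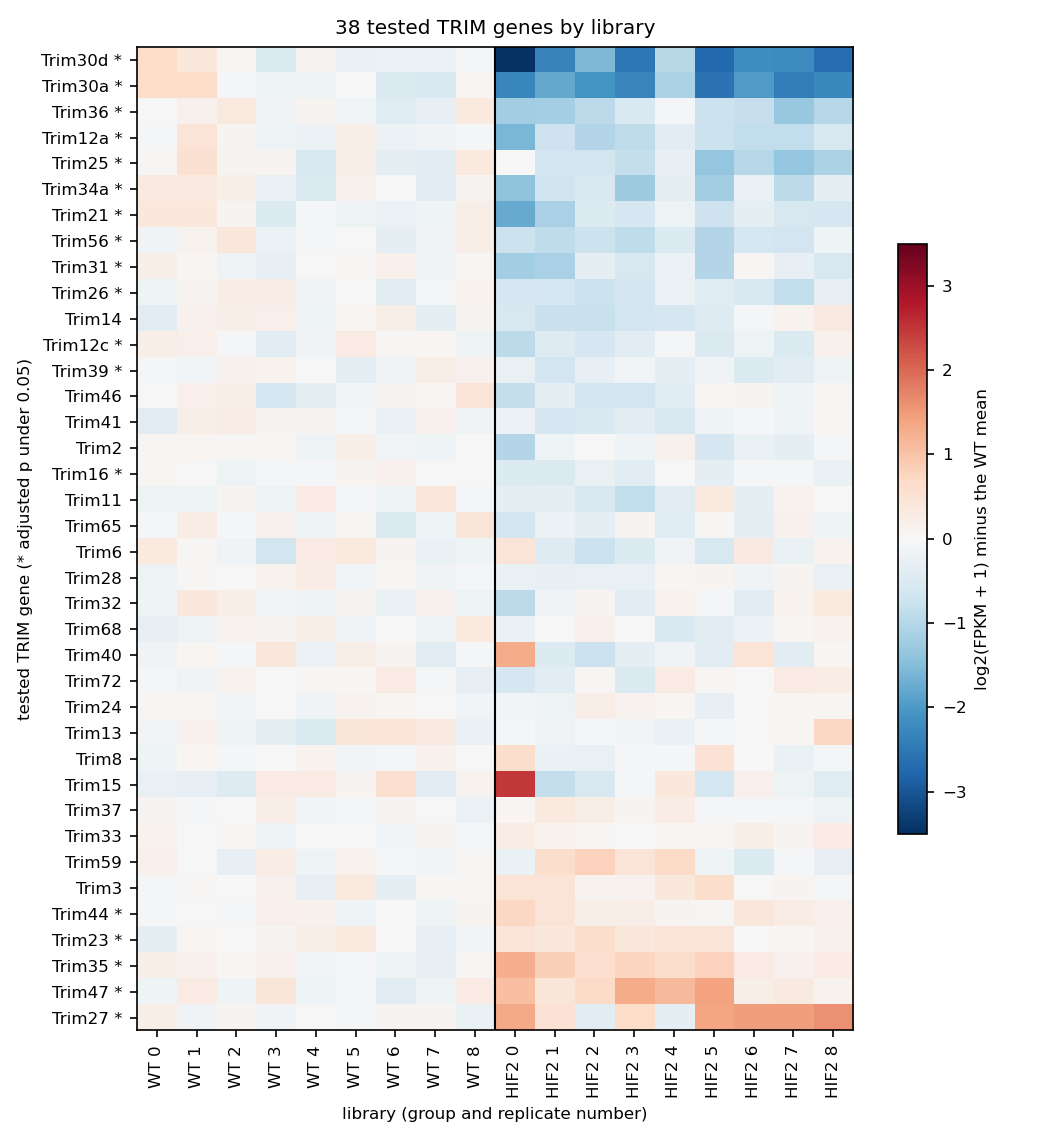
Heat map of the 38 tested TRIM genes (rows) in the 18 libraries (columns), coloured by log2(FPKM + 1) minus the gene's WT mean, with an asterisk for an adjusted p under 0.05. Trim30a and Trim30d are lower in all 9 HIF2 libraries, and Trim27 is higher in 7 of them.

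Of the 9 interferon-linked genes that fell, 8 held the same short motif near a start. RefSeq promoters (250 bases before to 50 after a start, GRCm38.p6) were matched by symbol for 50 of the 66 members, and were searched on both strands for GAAANNGAA, the core of the interferon-stimulated response element, which reads TTCNNTTTC on the other strand. It was present in 8 of the 11 members called lower that had a promoter, namely Trim12a, Trim12c, Trim21, Trim25, Trim26, Trim30a, Trim30d and Trim34a, and it was not in the windows of Trim31, Trim39 or Trim56. None of the 4 higher members with a promoter held it, nor did 13 of the 14 that were tested and not called. Of the 21 untested members with a promoter, 2 held it, Trim34b and Trim7. Of all 27025 genes with a promoter, 9.8% held it. A match is a description of letters and not a site shown to be bound. The windows of the 8 lower members and Trim2 are printed 5′ to 3′ on the gene's strand, with the core in capitals and 25 bases either side where the promoter reached that far, to show which neighbouring genes are alike there and which are not. Trim30a has a second promoter that also holds the core, and its window is left out with those of Trim34b and Trim7.
Trim30a (chr7:104465195-104465253, minus strand): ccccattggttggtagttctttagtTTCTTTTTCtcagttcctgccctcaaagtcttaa
Trim30d (chr7:104507856-104507914, minus strand): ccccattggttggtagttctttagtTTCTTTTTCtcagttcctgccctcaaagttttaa
Trim12a (chr7:104315451-104315509, minus strand): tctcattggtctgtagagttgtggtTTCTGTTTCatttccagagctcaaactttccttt
Trim12c (chr7:104353344-104353402, minus strand): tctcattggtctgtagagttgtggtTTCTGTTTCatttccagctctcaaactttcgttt
Trim34a (chr7:104244443-104244501, plus strand): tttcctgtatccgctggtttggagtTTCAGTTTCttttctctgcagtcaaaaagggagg
Trim21 (chr7:102565433-102565494, minus strand): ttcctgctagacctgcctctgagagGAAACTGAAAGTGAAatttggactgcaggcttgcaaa
Trim25 (chr11:88999369-88999427, plus strand): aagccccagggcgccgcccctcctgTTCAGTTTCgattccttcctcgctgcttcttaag
Trim26 (chr17:36836962-36837026, plus strand): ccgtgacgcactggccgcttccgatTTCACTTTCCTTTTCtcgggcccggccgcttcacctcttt
Trim2, tested and not called (chr3:84212789-84212834, minus strand): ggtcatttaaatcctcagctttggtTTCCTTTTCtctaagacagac

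Trim30a and Trim30d matched at 58 of 59 bases of these windows (98.3%), and Trim12a and Trim12c at 56 (94.9%), while Trim30a and Trim12a matched at 31 (52.5%). Trim34a, in the same run of genes, was less like the other printed windows of that run, at 39% to 47.5%. The window of the second Trim30a promoter matched that of Trim30d at 76.3%. All windows were cut around the core, so its fixed bases match by choice. The window of Trim25, on chromosome 11, matched the printed 59-base windows of chromosome 7 at 27.1% to 39%. Near-identical neighbours were counted as separate members among those that held the core. In Trim21 and Trim26 a pair of cores overlaps. The other motifs were closer to their background. The STAT core TTCNNNGAA was in 9.6% of all genes' promoters and in 1 of the 11 lower members, Trim31. The hypoxia response element core ACGTG was in 21.8% of all genes and in 2 of 11 lower members, Trim25 and Trim39, and in 0 of the 4 higher members. The second hypoxia core, GCGTG, was in 35.2% of all genes, in 1 of 11 lower members and in 3 of 4 higher members, Trim23, Trim44 and Trim47. Trim27 held neither hypoxia core in its window, at 21179681-21179980 of chromosome 13. GENCODE M21 starts that gene at 21179445, so the bases before that start were not searched. Trim44 and Trim47, on the minus strand, start in GENCODE M21 at 102407828 of chromosome 2 and 116127210 of chromosome 11. Their searched windows end at 102401150 and 116110485, inside the genes, so the bases before those starts were not searched either.

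Trim30a and Trim30d, interferon-inducible genes of a mouse-specific TRIM expansion, fell most. On chromosome 7 of GRCm38 Trim30a lies at 104409025-104465193 and Trim30d at 104470014-104507849, both on the minus strand (GENCODE M21). Trim30a was 13.7, 19.6 and 32.2 FPKM (lowest, median and highest of 9 libraries) in WT and 2.53, 3.44 and 8.86 FPKM in HIF2. The groups did not overlap, and the HIF2 library nearest to WT was replicate 4. The WT mean of 21 ± 6.8 FPKM compared with 4.2 ± 1.91 FPKM in HIF2 (both SD, n = 9), a log2 change of -2.09 ± 0.19 (SE, limma adjusted p = 2.41e-06). Trim30d was 23.2, 32.4 and 52.5 FPKM in WT and 2.14, 5.77 and 16.6 FPKM in HIF2. Again replicate 4 was the HIF2 library nearest to WT and the groups stayed apart. The log2 change of Trim30d was -2.30 ± 0.25 (SE, limma adjusted p = 8.3e-06). In the annotated transcripts, 6% of the 50-base stretches of Trim30a and 7.5% of those of Trim30d occur in other genes, so most stretches of each gene were its own.

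Trim12a and Trim12c are mouse relatives of primate TRIM5, which binds retroviral capsids. Trim12a (chromosome 7, 104299894-104315466, minus strand) was 19.9, 22.1 and 32.5 FPKM in WT and 6.95, 12.4 and 17.4 FPKM in HIF2, with no overlap. The log2 change was -0.85 ± 0.13 (SE, limma adjusted p = 0.000234). Trim12c (104338754-104353362, minus strand) changed less, averaging 15.9 ± 2.4 FPKM in WT and 12.2 ± 2.88 FPKM in HIF2 (both SD, n = 9), and 5 HIF2 libraries were below the WT range. Its log2 change of -0.38 ± 0.12 (SE, limma adjusted p = 0.0315) missed the threshold when any of 8 single libraries was left out (WT replicate 0, 1, 5 or 7, or HIF2 replicate 1, 2, 5 or 7), with adjusted p up to 0.0627. Copies matter more here, since 33.7% of the 50-base stretches of Trim12c and 10.5% of those of Trim12a occur in other genes. Trim34a, another interferon-inducible neighbour, averaged 6.62 ± 1.48 FPKM in WT and 3.57 ± 1.35 FPKM in HIF2 (both SD, n = 9). Its log2 change was -0.77 ± 0.17 (SE, limma adjusted p = 0.00348), and 6 HIF2 libraries were below WT. Of its stretches 59.7% occur elsewhere, chiefly in Trim34b, so that value is uncertain.

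Trim25, the ligase that attaches ubiquitin to the RNA sensor RIG-I, was 17.3, 27.6 and 37.4 FPKM in WT and 9.49, 14.1 and 26.1 FPKM in HIF2. The HIF2 libraries below the WT range numbered 7, and replicates 0 and 4 were inside it. Its log2 change was -0.80 ± 0.18 (SE, limma adjusted p = 0.00435). Trim21, a cytosolic receptor for antibody-coated particles, was 6.59, 9.35 and 12.6 FPKM in WT and 2.11, 6.09 and 8.3 FPKM in HIF2. Of its HIF2 libraries 6 lay below WT, and the log2 change was -0.71 ± 0.18 (SE, limma adjusted p = 0.00732). Trim21 was not called with the smooth muscle covariate (-0.56, limma adjusted p = 0.114) or the epithelial covariate (-0.16, limma adjusted p = 0.723). Trim56, a ligase that acts in antiviral signalling, was 12.5, 15.5 and 21.4 FPKM in WT and 7.3, 9.06 and 14.1 FPKM in HIF2. Only HIF2 replicate 8 reached the WT range, and the log2 change was -0.69 ± 0.11 (SE, limma adjusted p = 0.000393). Trim26, which has been tied to the turnover of interferon regulatory factor 3, was 12.1, 15.9 and 19.4 FPKM in WT and 8.48, 10.3 and 13.9 FPKM in HIF2, with 7 HIF2 libraries below WT. Its log2 change was -0.55 ± 0.10 (SE, limma adjusted p = 0.000846).

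**Figure D2:**
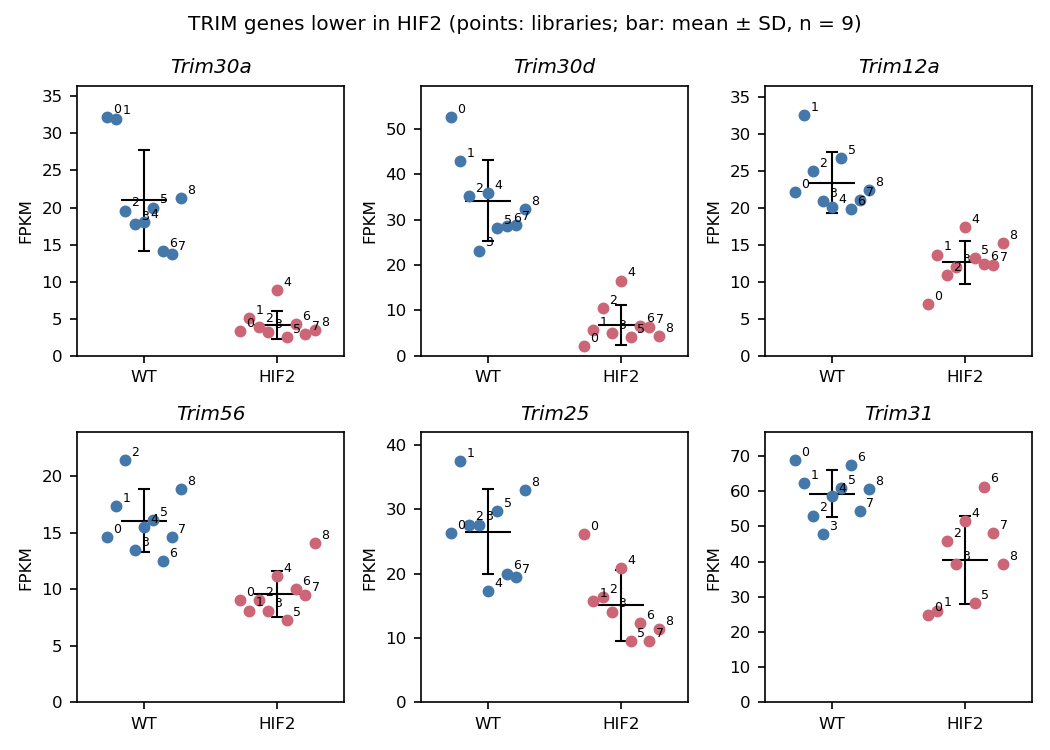
FPKM of 6 TRIM genes called lower in HIF2, with 1 point per library (numbered by replicate) and the mean ± SD of each group (n = 9). The groups are apart for Trim30a, Trim30d and Trim12a, and HIF2 replicate 4 is the highest HIF2 library for each of these 3.

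As a group, 9 of the 11 tested interferon-linked TRIM genes fell and 0 rose, with a median log2 change of -0.71. Over all genes tested, 11.1% were called lower and 11% higher, with a median of -0.02. The group was drawn up with earlier results of these data known, so its count is no independent support. Trim14, a mitochondrial adaptor in RNA sensing, had a log2 change of -0.38 (95% interval -0.69 to -0.06, limma adjusted p = 0.0794), and 33.9% of its stretches occur in other genes. Trim6 had -0.19 (limma adjusted p = 0.466). A further 4 rows of this group were under the filter. Their summed FPKM with the rest ran from 157 to 237 in WT and from 78.5 to 130 in HIF2, without overlap. The 9 genes did not fall equally in each library. HIF2 replicate 4 was the highest HIF2 library for 5 of the 9, and replicate 0 the lowest for 5, while in replicates 1, 5 and 7 all 9 were below every WT library.

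Other genes of the interferon pathway were lower in the same libraries, which the earlier results of these data already show, so they are no independent support. All 20 tested interferon response genes fell, with a median log2 change of -2.0. Oas3, which makes the messenger 2-5A, had a log2 change of -3.10, and Rsad2, which encodes the antiviral enzyme viperin, -2.08. The mean of this list in HIF2 replicate 4, -0.88 log2 below the WT mean, was the nearest to WT of the 9 HIF2 libraries, and the others lay between -2.93 and -1.78. Among 19 tested genes of nucleic acid sensing and interferon signalling, 11 fell and 1 rose, with a median of -0.36. Ddx58, which encodes RIG-I, the substrate of Trim25, fell by 1.44 on the log2 scale, Irf7 fell by 2.12 and Dhx58, a relative of RIG-I, fell by 1.80. Ifnar2, a chain of the type I interferon receptor, rose by 0.88. Of 11 tested ubiquitin-conjugating enzymes, which serve RING ligases, 1 was higher (Ube2v2, log2 change 0.31, limma adjusted p = 0.0435) and 0 were lower. Of 4 TRIM family genes with other names, Pml, which builds nuclear bodies, fell from 7.52 to 4.4 FPKM (limma adjusted p = 0.000754). Mid2, a microtubule-binding ligase, had a log2 change of -0.28 (limma adjusted p = 0.048), and its relative Mid1 had -0.06 (limma adjusted p = 0.783).

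Markers of cell types differed between the groups as well. Fewer cells of a type and less RNA per cell cannot be told apart in bulk tissue. Of 11 tested colon epithelium markers, 6 were lower and 0 higher. Their summed FPKM ran from 10430 to 16268 in WT and from 7814 to 13239 in HIF2, so epithelial RNA was present in every library. Car1 and Krt8 made up most of that sum, which does not by itself establish the gut segment. Smooth muscle markers were higher in 9 of 10 tested, with sums from 31.3 to 1063 in WT and from 65 to 3229 in HIF2. Fibroblast markers were higher in 10 of 10 (34 to 249 in WT, 117 to 964 in HIF2), macrophage markers in 8 of 9 (21.8 to 91.8, 51.3 to 223), endothelial markers in 9 of 10 (5.4 to 23.9, 19 to 118) and enteric neuron and glia markers in 4 of 4 (2.73 to 10.3, 5.44 to 60). Red blood cell markers were higher in 2 of 3 (0.814 to 6.97, 5.03 to 87.7) and skeletal or cardiac muscle markers in 1 of 2 (2.66 to 12, 2.1 to 25.9). T cell markers (5.53 to 10.3, 2.61 to 12.2) and B cell markers (1.23 to 9.37, 1.44 to 16.8) had 0 of 2 called each. No marker was at 0 in every library, and the part of these cells in the TRIM differences was not tested. Epas1, the endogenous gene for HIF2, averaged 18.8 ± 3.09 FPKM in WT against 22.7 ± 6.36 FPKM in HIF2 (both SD, n = 9; limma adjusted p = 0.246), and the labels do not say whether the altered allele adds reads to that row.

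With the mean of the smooth muscle markers as a covariate, 7 TRIM genes stayed lower (Trim12a, Trim25, Trim26, Trim30a, Trim30d, Trim36 and Trim56), against 7.32% of all genes lower and 6.83% higher in that fit. Trim30a and Trim30d then had log2 changes of -2.22 and -2.35. The lower genes that lost their call were Trim21, Trim31, Trim34a (-0.56), Trim39 (-0.35), Trim16 (-0.17) and Trim12c (-0.15), with limma adjusted p from 0.0523 to 0.512. The smooth muscle mean was higher in HIF2 replicates 0 to 5 than in any WT library. It thus follows genotype in part, so a call lost in that fit does not show that a difference is absent. HIF2 replicates 6 to 8, whose smooth muscle means lay between -0.61 and 0.56 log2 from WT while replicates 0 to 5 lay between 3.05 and 4.21, were also set against 8 WT libraries, without WT replicate 3 at 2.93. There the same 7 and Trim21 were lower, where 10.1% of all genes were lower and 8.99% higher, and Trim30a was at -2.24 and Trim30d at -2.43. Replicates 6 to 8 also held the most Slc11a2, at 1525 to 2101 FPKM, against 16.5 to 469 FPKM in replicates 0 to 5. The subset thus differs from replicates 0 to 5 in more than smooth muscle markers. With the epithelial marker mean as covariate, which left 272 calls over all genes, Trim25, Trim30a, Trim30d and Trim56 were still called lower. That mean, as log2 from the WT mean, lay between -0.28 and 0.21 in WT and between -1.08 and -0.23 in HIF2. The covariate thus nearly follows genotype, so a call lost in that fit does not show that a difference is absent.

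Genes outside the interferon group changed in both directions. Trim31, a ligase of the gut epithelium with no C-terminal domain, was the most abundant member, at 47.8, 60.7 and 68.8 FPKM in WT and 24.8, 39.4 and 61.3 FPKM in HIF2. Its HIF2 libraries spread widely, with 6 below the WT range. The log2 change was -0.59 ± 0.15 (SE, limma adjusted p = 0.0091), and it became -0.36 (limma adjusted p = 0.213) with the smooth muscle covariate. Trim36, a microtubule-associated ligase with a COS box, was 5.78, 8.04 and 10.5 FPKM in WT and 2.6, 3.74 and 7.79 FPKM in HIF2. All but 1 HIF2 library lay below WT, and the log2 change was -0.87 ± 0.15 (SE, limma adjusted p = 0.000702).

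Smaller decreases were seen in Trim16, which lacks a RING and acts in the clearance of damaged membranes, and in Trim39. Trim16 was 32.4, 37 and 41 FPKM in WT and 25.5, 30.6 and 37 FPKM in HIF2, so the groups overlapped in 3 HIF2 libraries. Its log2 change was -0.26 ± 0.08 (SE, limma adjusted p = 0.0185). Trim39 was 5.57, 7.14 and 8.61 FPKM in WT and 4.25, 5.76 and 6.7 FPKM in HIF2, with 4 HIF2 libraries below WT. Its log2 change was -0.32 ± 0.09 (SE, limma adjusted p = 0.0145). Both, like Trim12c, missed the threshold under upper quartile scaling, at log2 changes of -0.15 and -0.21.

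**Figure D3:**
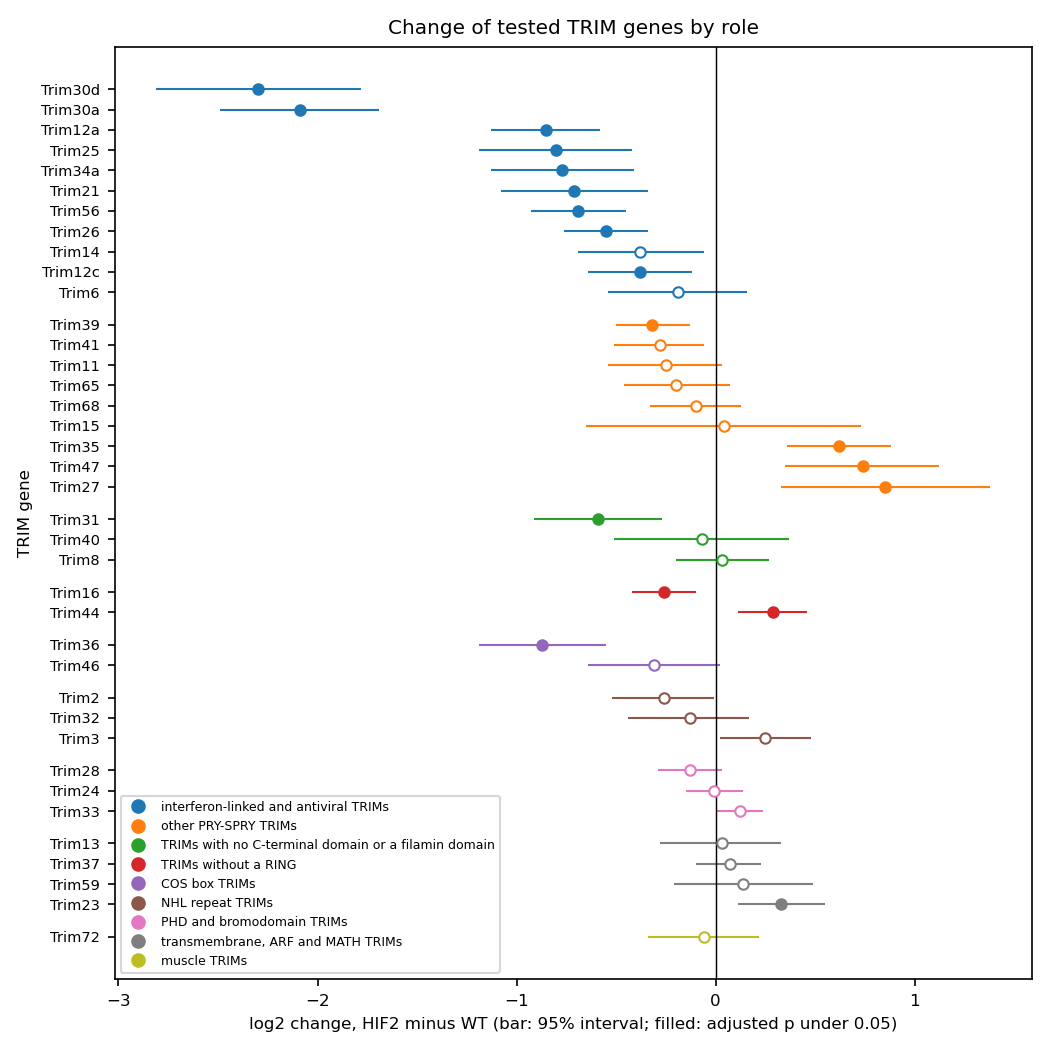
Log2 change, HIF2 minus WT, of the 38 tested TRIM genes with 95% intervals, grouped and coloured by role, filled where the limma adjusted p was under 0.05. Of the 11 interferon-linked genes at the top, 9 are filled and all lie below 0, and the 5 filled points above 0 belong to other groups.

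Trim27, a PRY-SPRY ligase of endosomal and nuclear function, had the largest increase of the tested TRIM genes on the log2(FPKM + 1) scale. With a pseudocount of 0.1 Trim47 was ahead of it, at 1.07 against 0.91, and with 0.01 at 1.12 against 0.91. Its value was 7.34, 8.81 and 10.2 FPKM (lowest, median and highest) in WT. In HIF2 replicates 0 to 8 it was 23.3, 12.9, 6.36, 14.1, 6.72, 24.2, 26, 26 and 28.7 FPKM. Replicates 2 and 4 lay below every WT library and the other 7 above every WT library. The log2 change was 0.85 ± 0.25 (SE, limma adjusted p = 0.0191). The same replicates 2 and 4 stood apart in Slc11a2. In HIF2 replicates 0 to 8 Slc11a2 was 469, 229, 16.5, 246, 18.2, 422, 2008, 2101 and 1525 FPKM, so 2 and 4 were in the WT range. Whether those 2 libraries match their labels was not tested.

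Without replicates 2 and 4 the log2 change of Trim27 was 1.20 (limma adjusted p = 2.77e-05). Trim30a and Trim30d fell in replicates 2 and 4 too, at 3.95 and 8.86 FPKM for Trim30a. In HIF2 replicates 6 to 8 Trim27 changed by 1.51 (limma adjusted p = 1.42e-06) against 8 WT libraries. Replicates 2 and 4 held the lowest HIF2 values of Trim27 and replicates 6 to 8 the highest. Both subsets were chosen with earlier results known, so their smaller p-values follow in part from that choice and are no independent support. With the smooth muscle covariate Trim27 changed by 1.39 (limma adjusted p = 0.00256), and with the epithelial covariate it lost its call at 0.38 (limma adjusted p = 0.583).

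Trim71, an RNA-binding ligase with NHL repeats that is known from stem cells and embryos, followed the same split of libraries at a low level. It was under the filter, listed at 0 in 7 of 9 WT libraries and at 0.0507 and 0.0589 FPKM in the other 2. HIF2 replicates 0 to 8 held 1.25, 0.814, 0, 0.668, 0, 0.876, 0.819, 0.566 and 2.07 FPKM. It was at 0 in replicates 2 and 4 and above every WT library in the other 7. With no filter on low values, 58 members could be tested, 7 were higher and 14 lower, and 10.6% of all genes were higher and 6.83% lower. The members gained were Trim71 (log2 change 0.74 ± 0.16, SE, limma adjusted p = 0.00511), Trim9, which is known from neurons (0.18, limma adjusted p = 0.0354), and the pseudogene Trim30e-ps1 (-0.49, limma adjusted p = 0.0298).

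**Figure D4:**
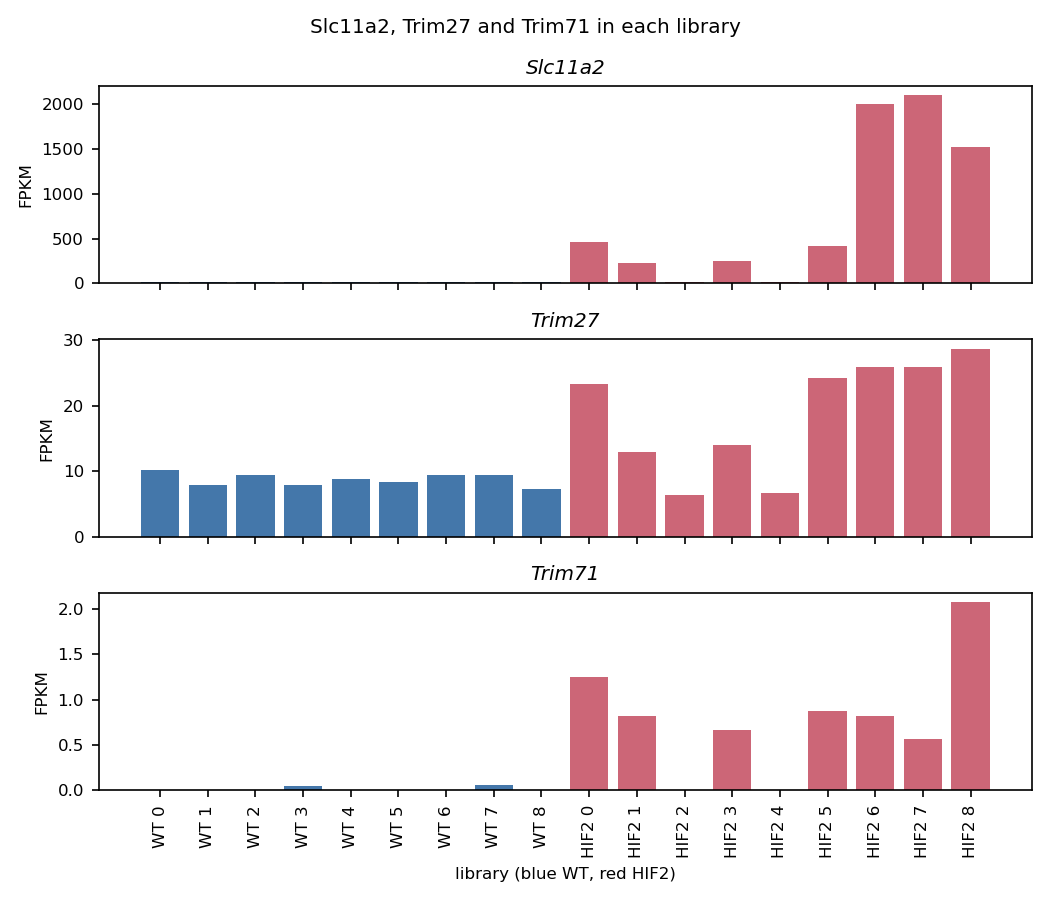
FPKM of Slc11a2, Trim27 and Trim71 in each of the 18 libraries (blue WT, red HIF2). In HIF2 replicates 2 and 4 Slc11a2 is at 16.5 and 18.2, Trim27 at 6.36 and 6.72 and Trim71 at 0.

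Among the other higher genes, Trim35, a PRY-SPRY ligase first described in macrophage maturation, was 4.47, 5.82 and 6.76 FPKM in WT and 6.43, 9.16 and 15 FPKM in HIF2. Of the HIF2 libraries 8 were above WT, and the log2 change was 0.62 ± 0.13 (SE, limma adjusted p = 0.00186). Trim47 was 0.751, 1.03 and 2.03 FPKM in WT and 1.45, 2.59 and 4.98 FPKM in HIF2, with 6 libraries above WT and a log2 change of 0.74 (limma adjusted p = 0.00778). In HIF2 replicates 0 to 5, where smooth muscle markers were high, Trim35 lay between 9.1 and 15 FPKM and Trim47 between 2.04 and 4.98, and in replicates 6 to 8 they lay between 6.43 and 7.18 and between 1.45 and 1.77. With the smooth muscle covariate Trim35 changed by 0.33 (limma adjusted p = 0.0978) and Trim47 by 0.25 (limma adjusted p = 0.353), and in HIF2 replicates 6 to 8 each changed by 0.26 with no call (limma adjusted p = 0.128 and 0.223). The part of smooth muscle in these differences was not tested, and Slc11a2 also differed between replicates 0 to 5 and replicates 6 to 8.

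Trim44, which has a B-box but no RING, averaged 8.3 ± 0.805 FPKM in WT and 10.4 ± 1.76 FPKM in HIF2 (both SD, n = 9), with 7 HIF2 libraries above WT. Its log2 change was 0.29 ± 0.09 (SE, limma adjusted p = 0.0205). Trim23, which joins a RING to an ARF GTPase domain, averaged 2.91 ± 0.581 FPKM in WT and 3.9 ± 0.678 FPKM in HIF2 (both SD, n = 9), and 6 HIF2 libraries were above WT. The log2 change of Trim23 was 0.33 ± 0.11 (SE, limma adjusted p = 0.0312), and leaving out any of 8 single libraries (WT replicate 0, 7 or 8, or HIF2 replicate 1, 2, 3, 4 or 5) ended its call, with adjusted p up to 0.0614. Trim23 lay between 3.99 and 4.94 FPKM in HIF2 replicates 0 to 5 and between 2.9 and 3.32 in replicates 6 to 8, as Trim35 and Trim47 were lower in those 3. It changed by 0.15 (limma adjusted p = 0.458) with the smooth muscle covariate and by 0.09 (limma adjusted p = 0.707) in replicates 6 to 8. Trim44 changed by 0.26 (limma adjusted p = 0.141) with that covariate. In replicates 6 to 8 Trim44 changed by 0.30 and was still called (limma adjusted p = 0.0347). Neither gene was called with values scaled as TPM.

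The remaining 20 tested members were not called, which does not show that they were equal. Their log2 changes ran from -0.38 (Trim14) to 0.25 (Trim3). None of the 3 chromatin regulators with a PHD finger and bromodomain passed the test. Trim28, the corepressor of KRAB zinc finger proteins, changed by -0.13 (limma adjusted p = 0.236), Trim24 by -0.01 (limma adjusted p = 0.972) and Trim33, which acts in TGF-beta signalling, by 0.12 (limma adjusted p = 0.157). Trim33 was called higher in 2 alternatives, the smooth muscle covariate and upper quartile scaling. The 3 tested NHL repeat genes were not called either: Trim2, abundant at 44 ± 3.68 FPKM in WT against 37.3 ± 8.31 FPKM in HIF2 (both SD, n = 9), changed by -0.26 (limma adjusted p = 0.133), Trim32 by -0.13 (0.558) and Trim3 by 0.25 (0.114). Others without a call were Trim41, Trim46, Trim11, Trim65, Trim68, Trim37, Trim59, Trim72, Trim40, Trim8, Trim13 and Trim15, with log2 changes between -0.31 and 0.14.

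Below the filter were 28 members, of which 8 were listed at 0 in every library (Trim42, Trim43b, Trim52, Trim54, Trim55, Trim58, Trim60 and Trim61). Trim54 and Trim55 are ligases of striated muscle. A further 20 were above 0 in some library, and 20 of the 28 never reached 1 FPKM.

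The chromosome 7 genes are neighbours. From Trim6 to Trim30e-ps1 (104218793 to 104535361, GRCm38) 9 members lie in 317 kb, of which 5 were lower, Trim6 was not called and 3 were under the filter. On chromosome 17, from Trim26 to Trim31 (36837134 to 36910214), 5 members lie in 73 kb, of which Trim26 and Trim31 were lower, Trim15 and Trim40 were not called and Trim10 was under the filter. Both runs thus hold called and uncalled genes side by side.

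**Figure D5:**
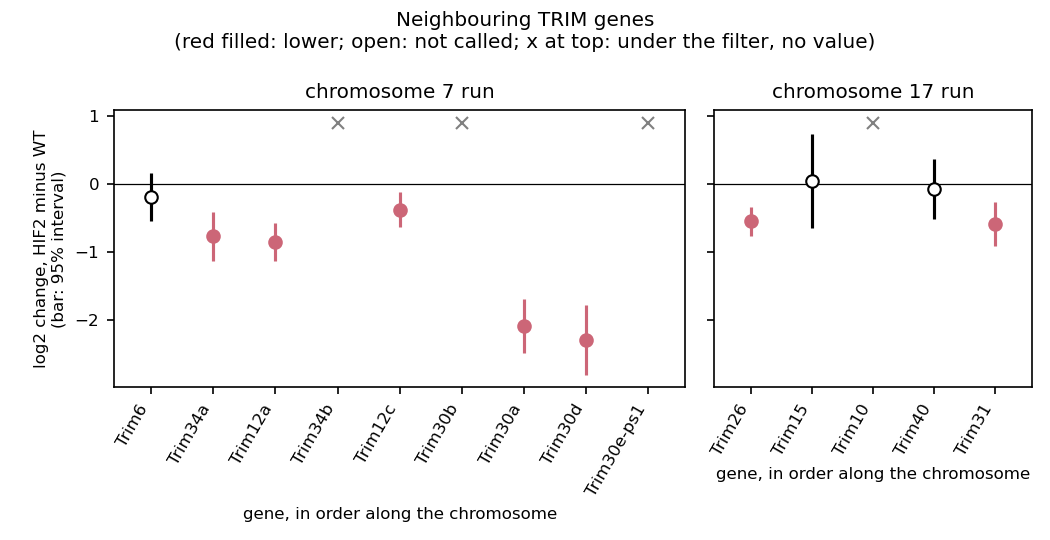
Log2 change, HIF2 minus WT, with 95% intervals, of TRIM genes in their order along the chromosome 7 run (9 members) and the chromosome 17 run (5 members). Filled red points were called lower, open points were not called, and crosses mark genes under the filter; Trim15 and Trim40 lie near 0 between Trim26 and Trim31.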

How the data were processed

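Polyadenylated RNA from colon was sequenced in 9 WT and 9 HIF2 libraries; the labels' protocols name a TruSeq RNA kit (v2). The deposited values were FPKM, computed by the authors before deposit, in 1 table of 27131 rows. Per the submitters' processing notes, Cuffdiff 2.1.1, Cufflinks, TopHat2 2.0.9 and Bowtie2 2.1.0.0 were among the tools and mm10 was the build, and their roles are not stated. Read depth is unknown, so no counting interval was given. FPKM columns summed to 686539 to 937505, the 5 highest rows held 28.2% to 36.5%, and 12613 to 14148 genes reached 1 FPKM. No 2 libraries were duplicates (highest correlation 0.9315).

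Values were analysed as log2(FPKM + 1), which understates changes of low genes, with limma 3.58.1 (trended prior) in R 4.3.3. The fit was also run on simulated data drawn independently for each gene, without shifts shared by genes within a library. The filter was a mean of 1 FPKM, and p-values were adjusted over all 13976 genes. Alternatives were pseudocounts, filters, scalings, covariates, left-out libraries, a replicate block and an exact permutation test over 48620 splits (smallest p 4.11e-05). The kit does not mark strand. Members, gene groups, lists and subsets of libraries were chosen with earlier results of these data known. Members called were described with values by library; lists show up to 4 examples by smallest p. Promoters came from RefSeq and positions from GENCODE M21.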

Additional observations from a re-analysis of the deposited data

Results flagged for a closer look

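In the 76 groups of 9 libraries examined (38 tested genes in each genotype), the highest or lowest library was compared with its nearest neighbour on the log2(FPKM + 1) scale, and a gap above 0.493 of the group's range was noted, which chance gives in about 1 in 20 groups. Trim15 in HIF2 replicate 0 was 98 FPKM, a gap of 0.634 of the range on that log2 scale, while the other 8 HIF2 libraries lay between 9.08 and 22.2. Trim13 in HIF2 replicate 8 was 5.78 FPKM, a gap of 0.707 on that log2 scale, while the others lay between 2.51 and 3.26. On the log2 scale these 2 of the 76 groups were noted, and neither gene was called. On linear FPKM 5 groups pass, all in HIF2: Trim15 (0.852), Trim13 (0.771), Trim30a (0.597, replicate 4), Trim40 (0.58, replicate 0) and Trim36 (0.499, replicate 4), of which Trim30a and Trim36 were called lower.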

How the results depend on the processing

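The exact permutation test called the same 5 higher and 13 lower TRIM genes. Over all genes, 2407 were higher with no filter, 640 with a filter at a mean of 5 FPKM, 2426 with upper quartile scaling, 954 with the smooth muscle covariate and 134 with the epithelium covariate. Lower genes numbered 940 with upper quartile scaling, 1023 with the smooth muscle covariate and 138 with the epithelium covariate. TRIM genes called higher numbered 3 with the filter at 5, 3 as TPM, 2 with the smooth muscle covariate, 0 with the epithelium covariate and 2 in HIF2 replicates 6 to 8, and those called lower 7, 4 and 8 in the last 3. The filter at 5 holds fewer genes and the subset fewer libraries, and the causes of these shifts were not tested. Reversed values were Trim44 at -0.02 and Trim12c at 0.01 with the epithelium covariate, and Trim14 at 0.15 in HIF2 replicates 6 to 8. The epithelium covariate nearly follows genotype, so reversals and lost calls in that fit do not show that a difference is absent. The smooth muscle covariate follows genotype in part, and the same limit holds for calls lost with it. Leaving out 1 library gave 4 to 5 TRIM genes higher and 12 to 15 lower, with 1333 to 1653 genes higher and 1343 to 1662 lower in all. Deviations of same-numbered libraries from their group means had r from -0.0333 to 0.112. Differently numbered pairs were not set beside these, so the values do not settle whether the numbers pair libraries. With the replicate block 5 TRIM genes were higher and 12 lower, and 2700 genes were called in all. Trim12c lost its call there (limma adjusted p = 0.085). Depth is unknown, so the precision of the lowest genes could not be given.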

Other observations

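HIF2 replicate 0 held the highest value of several uncalled or low TRIM genes besides Trim15. Trim40, next to Trim15 on chromosome 17, was 40.5 FPKM there, while the rest of that genotype lay between 8.99 and 22.3. Trim10, in the same run, was 1.77 FPKM there and at most 0.285 elsewhere. Trim29, a RING-less member known from stratified epithelium, was 4.82 FPKM in that library and at most 1.89 in the others. These genes were singled out after their values were seen.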
